A study of Mus musculus with 3 samples.

Results

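Nuclear receptors for retinoic acid and the proteins that make and carry it were examined as 9 genes: the retinoic acid receptors Rara, Rarb and Rarg, the retinoid X receptors Rxra, Rxrb and Rxrg, the cellular retinoic acid binding proteins Crabp1 and Crabp2, and the synthesis enzyme Aldh1a2. They were picked by symbol from the 41388 Ensembl genes of the deposited tables, and each symbol matched 1 gene. The cells were sorted for a Ret reporter from dorsal root ganglia of 12.5 dpc mouse embryos, between spinal levels T11 and S1. The 3 libraries make up 1 group, and nothing else was sampled to compare them with. Genotype is given as Tg(Ret-EGFP)SJ/ on C57BL/6, whereas the series text speaks of EGFP inserted at one Ret locus. Library B pooled 340 ganglia of 17 embryos, C 300 ganglia of 15 and D 60 ganglia of 3, from several mothers and both sexes. Each library is thus a pool, and any p-value measures the spread between pools only.

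Retinoic acid is made from vitamin A (retinol) in a pair of oxidations, the first by retinol dehydrogenases such as RDH10 and the last by ALDH1A enzymes, of which ALDH1A2 is the main one in the trunk of the embryo. It enters the nucleus, where CRABP2 passes it to a RAR, and RAR paired with RXR sits on retinoic acid response elements next to target genes. CYP26 enzymes degrade it. In the developing nervous system this pathway is known for setting position along the body axis and for neuronal differentiation and neurite growth, and Rarb is itself a classical target gene.

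One such element is shown because it links a receptor gene to the pathway it reads. RefSeq promoter windows (GRCm38.p6) were present for 8 of the 9 genes, as 15 windows, and the 250 bases before each start were searched on both strands. The search was for direct repeats of a half-site (A or G, then G, then G or T, then T, then C or G, then A) with a spacer of 1, 2 or 5 bases, named DR1, DR2 and DR5. Capitals mark the repeat in the lines that follow, each given 5′ to 3′ along the gene's strand.
Rarb DR5: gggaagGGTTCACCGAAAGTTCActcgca
Rxrg DR1: gatcggGGTTGAAAGGTCAgctgaa
Cyp26a1 DR5: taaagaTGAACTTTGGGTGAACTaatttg

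The Rarb stretch lies at chr14:16575507-16575535 on the minus strand, with the repeat at -53 to -37 from the RefSeq start, inside an exon that GENCODE M21 gives to Rarb. The Rxrg stretch lies at chr1:167618164-167618188 on the plus strand, at -95 to -83 from the second of its starts and inside an intron of the longer transcripts in GENCODE M21. That of Cyp26a1, a gene outside the 9 shown because it encodes the degrading enzyme, lies at chr19:37697770-37697798 on the plus strand, with the repeat on the opposite strand at -32 to -16, and its last base is the first exon base of Cyp26a1 in GENCODE M21. Of all 32851 windows, 0.262% held a DR5, 0.487% a DR1 and 0.344% a DR2. No other match was found among the windows of the 9 genes. Such a match is a description of the letters and no evidence of binding.

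Levels are given as TPM, the count per base of deposited gene length scaled to the same sum in each library, so that genes of different length can be compared. All 9 genes reached 1 TPM in every library, against 28.7% of all genes in the tables. None shares exon bases with another counted gene. The level spanned more than 2 orders of magnitude, from Crabp1 and Crabp2 down to Rarg.

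**Figure D1:**
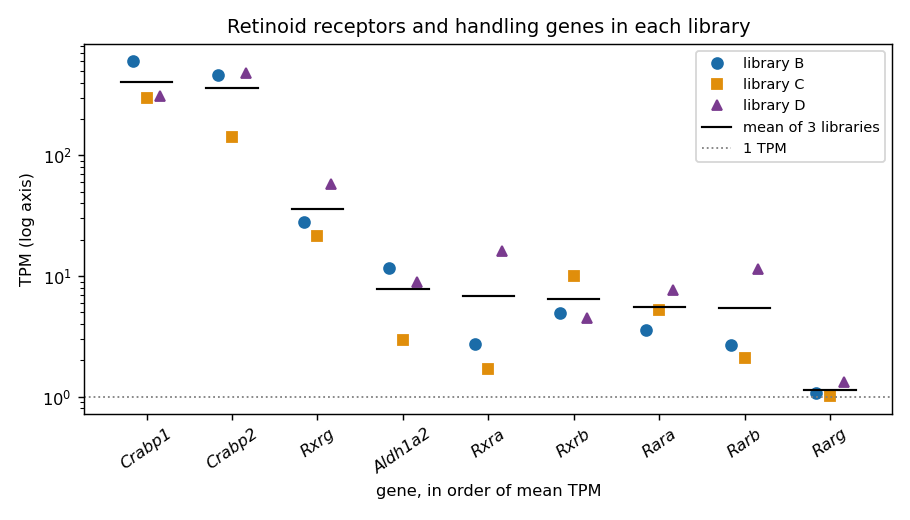
TPM on a log axis for each gene, with 1 symbol per library, a bar for the mean of the 3 libraries and a dotted line at 1 TPM. The 2 Crabp genes stand highest, Rxrg follows, and Rarg lies just above 1 TPM in each library.

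Among the binding proteins, Crabp1 (ENSMUSG00000032291, chromosome 9, 54764748 to 54773110, GRCm38) had levels of 605, 299 and 311 TPM in B, C and D, a mean of 405 ± 174 (SD, n = 3). CRABP1 holds retinoic acid in the cytoplasm. Crabp2 (ENSMUSG00000004885, chromosome 3, 87948666 to 87953376), whose product hands the ligand to the receptors, stood at 465, 141 and 483 TPM, with a mean of 363 ± 192. Crabp1 was high in B alone, while Crabp2 was low in C alone. Their order therefore differed between pools: the log2 ratio of Crabp1 over Crabp2 took the values 0.38, 1.08 and -0.63 in B, C and D. Its mean of 0.28 ± 0.86 lay within the spread between libraries. In reads alone Crabp2 led in B, with 5549 against 4379 counts, because its counted length is 1322 bases and that of Crabp1 802.

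Of the retinoid X receptors, which are the shared partners of many nuclear receptors, Rxrg was the highest in every library. Rxrg (ENSMUSG00000015843, chromosome 1, 167598384 to 167639623) had levels of 28.0, 21.6 and 57.4 TPM in B, C and D, a mean of 35.7 ± 19.1 (SD, n = 3). It made up 78.5, 64.8 and 73.7% of the summed Rxr TPM. Rxra and Rxrb divided the rest in a way that depended on the pool.

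Rxra (ENSMUSG00000015846, chromosome 2, 27676440 to 27762957) stood at 2.74, 1.71 and 16.0 TPM in B, C and D, with a mean of 6.83 ± 7.99. Rxrb (ENSMUSG00000039656, chromosome 17, 34031812 to 34038393) stood at 4.92, 10.0 and 4.46 TPM, with a mean of 6.46 ± 3.08. Rxra was lower than Rxrb in B and C and higher in D. The log2 ratios of Rxra over Rxrb were -0.82, -2.48 and 1.82.

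The retinoic acid receptors proper were lower. Rara (ENSMUSG00000037992, chromosome 11, 98927818 to 98974942) had levels of 3.56, 5.27 and 7.67 TPM in B, C and D, a mean of 5.50 ± 2.07 (SD, n = 3). Rarb (ENSMUSG00000017491, chromosome 14, 16430842 to 16575472), which carries the DR5 printed above, stood at 2.70, 2.09 and 11.4 TPM, with a mean of 5.39 ± 5.19. Rara led among the 3 receptors in B and C and Rarb in D, where Rarb took 55.8% of the summed Rar TPM, against 36.8% in B and 24.9% in C.

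Rarg (ENSMUSG00000001288, chromosome 15, 102234938 to 102257517) was the lowest of the 9 genes, at 1.08, 1.01 and 1.33 TPM, or 40, 25 and 42 counts. Its mean was 1.14 ± 0.16 TPM, with a coefficient of variation of 0.144. It stood lowest of the 3 receptors in each pool.

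**Figure D2:**
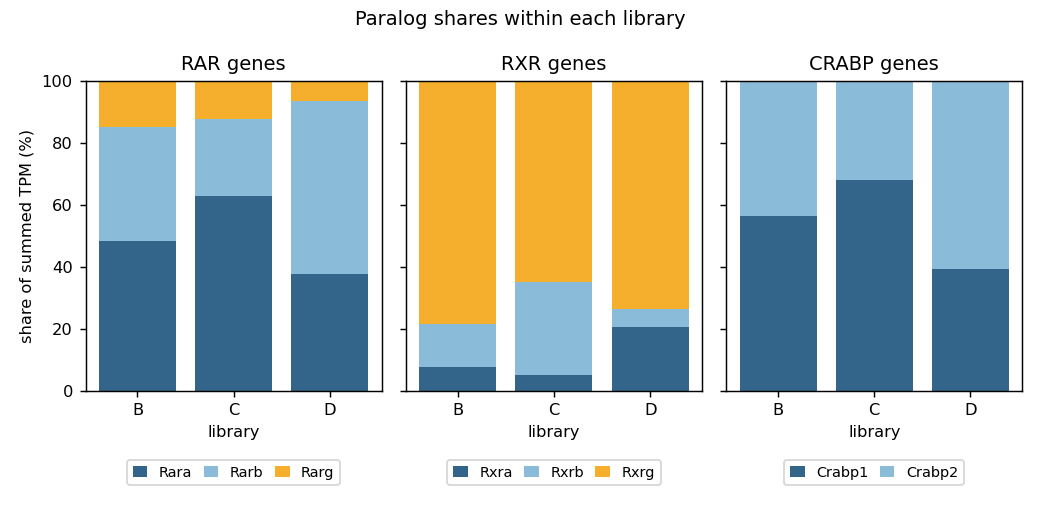
Share of each paralog in the summed TPM of its family (percent) for libraries B, C and D. Rxrg takes the largest part of the RXR bar in every library, whereas the leading RAR and CRABP gene in D differs from that in B and C.

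Aldh1a2 (ENSMUSG00000013584, chromosome 9, 71215789 to 71296243) had levels of 11.7, 2.95 and 8.94 TPM in B, C and D, a mean of 7.86 ± 4.48 (SD, n = 3), from 239, 40 and 156 counts. C was the low library. A list of 5 skeletal muscle markers was also lowest there, with summed levels of 11.2, 0.40 and 15.2 TPM in B, C and D, and 0 of the 5 reached 1 TPM in every library. Of 6 endothelium markers, too, 0 did so, with summed levels of 7.86, 3.38 and 4.74 TPM. Sums lowest in C were not particular to these lists. Glia markers summed to 3042, 1501 and 4770 TPM and mesenchyme markers to 31.8, 25.2 and 97.9 TPM. Neuron, motor neuron, sympathetic, erythroid and macrophage markers summed lowest in D. The part of any of these cells in the Aldh1a2 level was not tested. Aldh1a2 is also known from meninges and motor neurons. Of 6 meninges markers 1 was detected, Bgn, and the summed level was 4.91, 4.84 and 6.72 TPM. Foxc2 was at 1, 1 and 0 counts. Of 6 motor neuron markers 2 were detected, Isl2, which sensory neurons express as well, and Slc18a3, and the summed level was 71.7, 80.4 and 63.2 TPM. Mnx1 was at 4, 4 and 0 counts. In pooled cells, fewer cells of a type and less RNA per cell cannot be told apart.

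In order of mean TPM the genes ran Crabp1, Crabp2, Rxrg, Aldh1a2, Rxra, Rxrb, Rara, Rarb and Rarg. Of the 8 neighbouring pairs, 3 kept their order in every library: Crabp2 over Rxrg (log2 ratio 3.28 ± 0.70), Rxrg over Aldh1a2 (2.27 ± 0.88) and Rarb over Rarg (1.82 ± 1.12). The 5 others changed order between pools: Crabp1 and Crabp2, Aldh1a2 and Rxra, Rxra and Rxrb, Rxrb and Rara, and Rara and Rarb.

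The families were then compared within each library, in 10 ratios taken with a pseudocount of 0.1 TPM. Summed Rxr over summed Rar was the steadiest, at log2 ratios of 2.26, 1.98 and 1.93, a mean of 2.06 ± 0.18 (SD, n = 3) or a 4.16-fold excess of Rxr transcripts. The sums themselves were 35.7, 33.3 and 77.9 TPM for Rxr and 7.34, 8.37 and 20.4 TPM for Rar. Summed Crabp exceeded summed Rar by 6.05 ± 0.99 on the log2 scale, 66.2-fold. In CPM, which leaves out gene length, that log2 ratio was 4.18. Rxra lay below Rxrg by a log2 ratio of -2.91 ± 0.94 and Rxrb below Rxrg by -2.41 ± 1.28. Rara over Rarg was 2.12 ± 0.43 and Rarb over Rarg 1.74 ± 1.10. Aldh1a2 over the summed Cyp26 genes was 3.62 ± 1.45, from log2 ratios of 5.03, 2.12 and 3.70. These 7 ratios had 1 sign in 3 of 3 libraries and a two-sided exact sign-flip test gave p = 0.25, below which 3 libraries cannot go (0.36 after Benjamini-Hochberg adjustment over 10). Rara over Rarb, Rxra over Rxrb and Crabp1 over Crabp2 changed sign between libraries (exact p = 0.75 for each, adjusted 0.75).

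**Figure D3:**
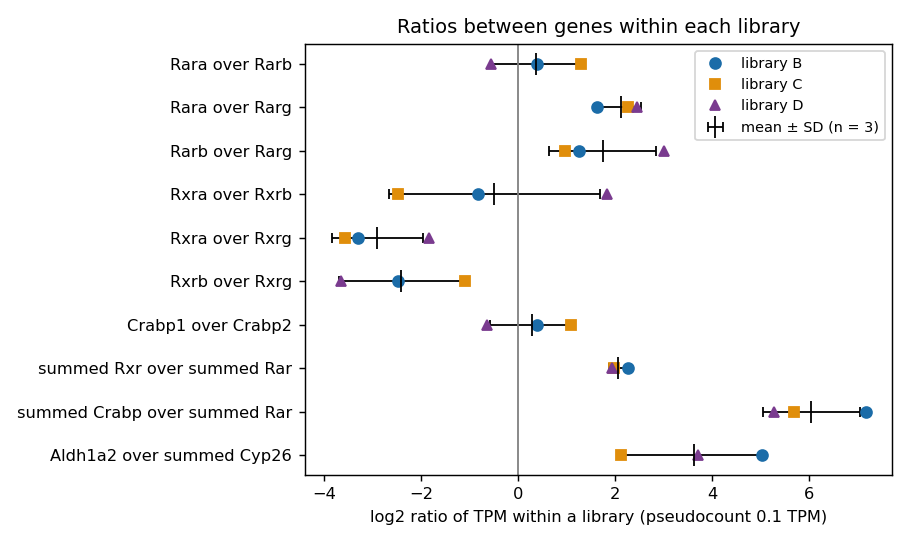
Log2 ratio of TPM within a library for 10 pairs of genes or summed families, with 1 symbol per library and the mean ± SD (n = 3). Summed Rxr over summed Rar lies between 1.93 and 2.26, while 3 of the pairs straddle 0.

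Of the 18 genes of retinoid supply and synthesis, 11 were detected at 1 TPM in every library. Adh5, an alcohol dehydrogenase, and Fabp5, a fatty acid binding protein that can also carry retinoic acid, had means of 351 ± 36.8 and 348 ± 86.0 TPM (SD, n = 3). Rbp4, the carrier of retinol in blood, had 4, 0 and 0 counts. A count of 0 allows up to 3 counts, or 0.257 CPM in C and 0.143 CPM in D. Rdh10, which starts the conversion of retinol, stood at 0.72, 1.00 and 3.09 TPM. Dhrs3, a reductase that turns retinal back into retinol and a known retinoic acid target, stood at 19.2, 10.9 and 121 TPM.

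The other synthesis enzymes did not follow Aldh1a2. Aldh1a1 had 4, 3 and 6 counts. Aldh1a3 stood at 2.09, 2.64 and 21.6 TPM, below Aldh1a2 in B, close to it in C and above it in D. Of the 3 degrading enzymes, 0 were detected in every library. Cyp26a1 had 2, 6 and 6 counts, Cyp26b1 had 6, 1 and 3 and Cyp26c1 had 0, 0 and 1, and the highest TPM of any of them was 0.564. Cyp26a1 and Rarb both hold a DR5 before their start in the windows searched, with a mean of 0.38 ± 0.23 TPM for the first and 5.39 TPM for the second.

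Receptors and cofactors that work with RXR and RAR were present too. Of 13 other RXR partners 6 were detected, led by Nr4a1, an inducible orphan receptor, at 29.3 ± 28.4 TPM. Nr1h2, the liver X receptor beta, and Thra, a thyroid hormone receptor, followed with 16.0 ± 6.16 and 15.8 ± 7.63 TPM, and Thra shares 5.70% of its exon bases with Nr1d1. Each of these 3 had a mean above those of Rara, Rarb and Rarg. Of 15 corepressors and coactivators 14 were detected, with Hdac3, a deacetylase of the corepressor complex, at 86.9 ± 23.4 TPM, Gps2 of the same complex at 59.4 ± 10.3 and Med1, a Mediator subunit that contacts nuclear receptors, at 47.1 ± 44.7.

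The genes closest in level over the 3 libraries, by the largest absolute difference in log2(TPM + 0.1), were found for the highest gene of each role. For Crabp1 they were 2410015M20Rik (0.035) and Snrpg (0.13), for Rxrg Oprl1 (0.064) and Slc38a1 (0.083), for Rara Ptpre (0.043) and Gm26202 (0.058), and for Aldh1a2 Dqx1 (0.16) and Zfp955b (0.31). With only 3 libraries many genes lie near, 290 within 0.5 for Rara and 24 for Aldh1a2.

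The libraries differ in the labels by how many embryos they pooled, and D, with 3, was set against B and C by edgeR's quasi-likelihood test over 15727 genes, in which all 9 genes passed the filter on low counts. The log2 ratio here is of normalized counts, not TPM. That matters for D, because over 11896 detected genes the median log2 ratio of D to the mean of B and C was 0.61 in TPM and 0.15 in CPM. Receptor genes split: Rxra and Rarb were among those higher in D, Rxrb among those lower.

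Rxra, with 135, 56 and 675 counts, had a log2 ratio of 2.15 ± 0.53 (approximate SE), or 4.44-fold, and an edgeR adjusted p = 0.19. Rarb, with 74, 38 and 266 counts, had 1.54 ± 0.57 and an adjusted p = 0.24. D lay above both other libraries for each. Rxrb, with 164, 222 and 127 counts, had -1.46 ± 0.70 (adjusted p = 0.30), and Crabp1, with 4379, 1437 and 1925 counts, -1.23 ± 0.56 (adjusted p = 0.28).

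The ratios of the 5 other genes were close to or below their SE in size: 0.52 ± 0.47 for Rxrg, 0.09 ± 0.58 for Rara, -0.36 ± 0.77 for Rarg, -0.01 ± 0.68 for Crabp2 and -0.40 ± 0.85 for Aldh1a2. None of the 9 passed at adjusted p 0.05, and 0% of the genes tested did, although 3046 of them had an unadjusted p under 0.05. Of the 9, 2 had an unadjusted p under 0.05, Rxra and Rarb, and DESeq2, which gave Rarg no adjusted p, called 0 of the 8 others, against 6.38% of the genes to which it gave one. Its value for Rxra was 2.11 ± 0.72 (adjusted p = 0.053). With no filter on low counts the edgeR ratio of Rxra was 2.20 ± 0.60. At a log2 ratio above 1 stood 2 of the 9 and 20.8% of all genes tested, and below -1 stood 2 and 22.1%, so these shares were near the background.

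**Figure D4:**
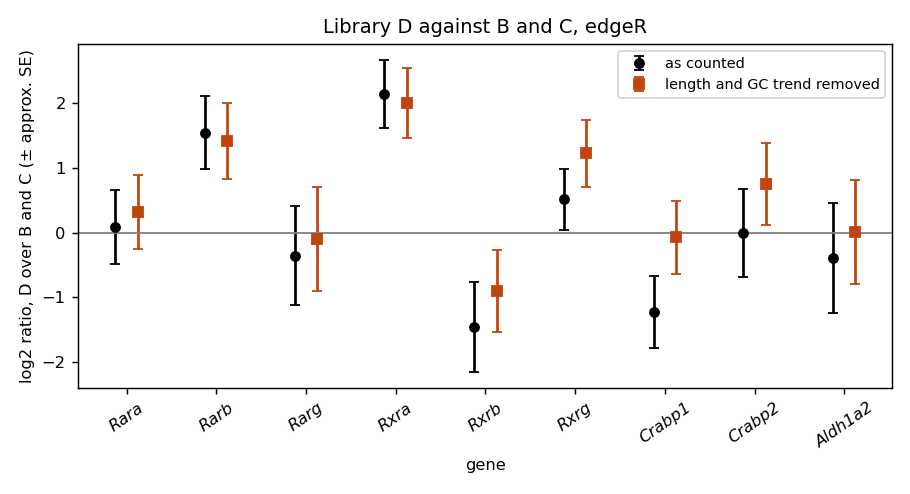
Log2 ratio of library D over B and C by edgeR, with approximate SE, for each gene as counted (circles) and with a trend in gene length and GC content removed (squares). Rxra and Rarb stay above 1 in both, whereas Crabp1 moves from -1.23 to -0.07 and Rxrg from 0.52 to 1.23.

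Length and base composition moved with the D ratio across the genes tested, which are not independent replicates (Spearman 0.40 with length and -0.34 with GC). With that trend removed, Rxra stood at 2.00 ± 0.55 and Rarb at 1.41 ± 0.59. Rxrb moved to -0.90 ± 0.63, Crabp1 to -0.07 ± 0.57 and Rxrg to 1.23 ± 0.52. Higher in D were then 6 of the 9 genes in place of 4. Among the 6, Aldh1a2 at 0.01 ± 0.80 and Rara at 0.32 ± 0.57 lay within their SE of 0. The median over all genes tested was -0.08 in that fit. Glia markers were uneven in D. All 8 were detected, and their summed level was 3042, 1501 and 4770 TPM in B, C and D, but without Ednrb the other 7 summed to 2667, 1247 and 2632 TPM, with B highest. By edgeR 6 of the 8 had a ratio above 0 in D, the largest being 3.11 ± 0.45 for Erbb3, 2.80 ± 0.55 for Cdh19 and 2.07 ± 0.37 for Ednrb. The 2 below 0 were Fabp7 at -0.51 ± 0.53 and Sox10 at -0.15 ± 0.47. Erbb3 and Cdh19 were named after their values were seen. Mesenchyme markers, 5 of 8 detected, summed to 31.8, 25.2 and 97.9 TPM, led by Col1a2 and Col3a1, while Twist1 had 15, 7 and 1 counts. Neuron markers summed to 33792, 24455 and 20610 TPM, lowest in D, whereas their median, 479, 367 and 657 TPM, was highest in D. The part of these cell types in the Rxra and Rarb ratios was not tested.

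Spread between B and C can be read in the same members. Without C, the log2 ratio of D was 1.86 for Rxra and 1.39 for Rarb, and without B it was 2.48 and 1.69, values with no test. Crabp2 and Aldh1a2, both low in C, gave -0.63 and -1.07 against B alone and 1.02 and 0.85 against C alone.

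The wider pathway was described in D by counts, with no test of a list. Of 11 tested genes among 14 known to respond to retinoic acid, 9 were higher and 2 lower, with a median log2 ratio of 1.04 against -0.02 for all genes, of which 49.5% were higher. None passed edgeR's test, the smallest adjusted p being 0.17. By DESeq2 the log2 ratio was 2.37 ± 0.67 for Nr2f2 and 2.27 ± 0.65 for Dhrs3. For Nedd9, a scaffold protein of adhesion signalling that was named after its values were seen, it was 3.30 ± 0.67. With no filter on low counts the edgeR ratio was 3.39 ± 0.58 for Nedd9, 2.46 ± 0.50 for Nr2f2 and 2.36 ± 0.54 for Dhrs3. For Nrip1, a receptor corepressor, it was 1.79 ± 0.55. Nr2f2, which encodes the orphan receptor COUP-TFII, stood at 30.0, 13.2 and 186 TPM with a log2 ratio of 2.42 ± 0.54 (adjusted p = 0.18). Dhrs3 had 2.31 ± 0.50 (adjusted p = 0.17). After removal of the trend in length and GC, the median was 0.94 and 9 of 11 were higher. The part of the uneven glia markers in these ratios was not tested.

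Corepressors and coactivators were higher for 12 of 15, with a median of 0.94, and with the trend removed for 11 of 15, with a median of 0.28. Supply and synthesis genes were near even, 7 of 13 tested higher and a median of 0.13. Among them Aldh1a3 had a log2 ratio of 2.49 ± 0.51 (adjusted p = 0.17) and Fabp5 -1.30 ± 0.40 (adjusted p = 0.21). Of the other RXR partners 6 of 11 were higher, with 1.54 ± 0.54 for Nr4a1 (adjusted p = 0.23), -1.44 ± 0.66 for Thra (adjusted p = 0.28) and -1.22 ± 0.62 for Nr1h2 (adjusted p = 0.32). With the filter on low counts edgeR called 0 genes of these lists, and the Cyp26 genes were too low to be tested. By DESeq2 the log2 ratio was 2.45 ± 0.71 for Aldh1a3, and for the cofactor genes Sin3a and Ncoa3 it was 2.34 ± 0.71 and 1.97 ± 0.65. With no filter the edgeR ratio was 2.43 ± 0.56 for Sin3a, 2.06 ± 0.56 for Ncoa3 and 1.79 ± 0.55 for Nrip1. For the cofactor genes Crebbp and Med1 it was 1.73 ± 0.49 and 1.49 ± 0.50. In the filtered fit with the trend removed, the ratios of these cofactor genes were smaller. Sin3a then stood at 1.89 ± 0.57, Ncoa3 at 1.43 ± 0.50, Nrip1 at 0.96 ± 0.52, Crebbp at 1.17 ± 0.54 and Med1 at 0.70 ± 0.62. Sin3a, Ncoa3, Nrip1 and Crebbp were named after their values were seen.

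**Figure D5:**
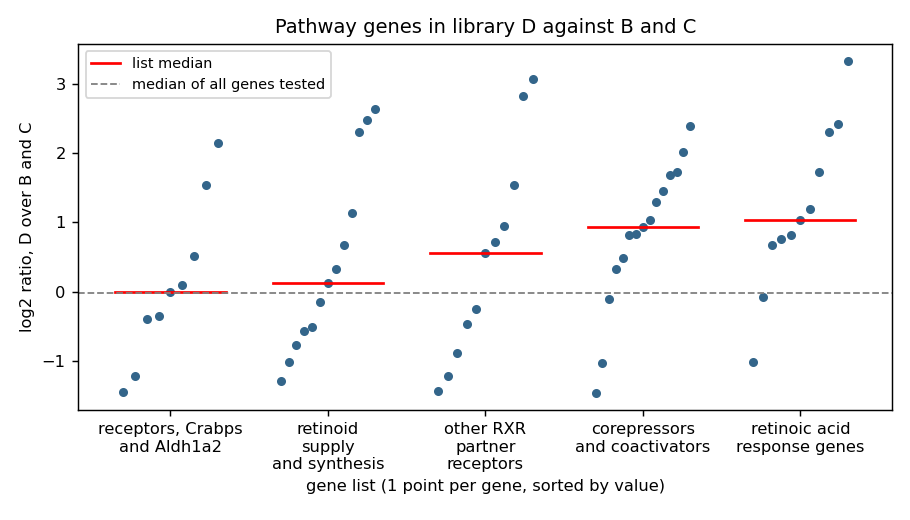
Log2 ratio of library D over B and C by edgeR, with 1 point per tested gene of each list, a bar at the list median and a dashed line at the median of all genes tested (-0.02). The medians of the response genes (1.04) and of the corepressors and coactivators (0.94) lie above that line.

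Each other library was set against the remaining pair in the same way. In C, 0 of the 9 genes passed, where 0.782% of all genes did. The ratios ran from -1.82 ± 1.02 for Rxra to 1.46 ± 0.90 for Rxrb, with adjusted p from 0.80 to 1.00. In B, 0 of the 9 and 0% of all genes passed, with ratios from -1.13 ± 1.17 for Rxra to 1.4 ± 1.11 for Aldh1a2. With the trend in length and GC removed, the C ratios were -1.74 ± 0.73 for Rxra, -1.78 ± 0.80 for Aldh1a2 and -1.72 ± 0.79 for Crabp2. Of the 9 genes, only Rxrb (1.08 ± 0.66) and Rara (0.20 ± 0.68) were above 0 in C by that fit. All fits share the same 3 libraries and so are not independent. The biological coefficient of variation over the 3 pools ran from 0.44 for Rarg to 0.62 for Rxra, against a median of 0.49 over 13182 genes.

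The sorted cells carried the markers of their labelled tissue. Each of the 8 neuron markers reached 1 TPM throughout, led by Tubb3 and Stmn2. The D ratio was -1.26 ± 0.42 for Tubb3 and -1.26 ± 0.31 for Stmn2. Of the 8, 6 were below 0 and 2 above, Pou4f1 at 1.36 ± 0.44 and Dcx at 0.70 ± 0.39. With the trend in length and GC removed, Tubb3 moved to -0.22 ± 0.54 and Dcx to -0.13 ± 0.47. Stmn2 then stood at -1.29 ± 0.44 and Pou4f1 at 1.00 ± 0.49. Pou4f1 and Dcx were named after their values were seen. Detected in every library were 0 of 6 spinal cord progenitor markers, among which Olig2, Olig3 and Dbx1 had no counts. Sympathetic markers, 5 of 7 detected, summed to 284, 230 and 90.0 TPM, and erythroid markers, 5 of 7, to 2793, 1403 and 399 TPM. Macrophage markers, 3 of 6, summed to 36.4, 31.9 and 26.5 TPM. Total counts ranged from 11666241 to 20966139 per library.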

How the data were processed

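RNA of sorted cells was measured in 3 pooled libraries. Per the labels' protocols, cDNA was made with a low-input kit. The authors deposited, per library, raw counts, CPM and RPKM for each Ensembl gene with its exon coordinates and length. Per the submitters' processing notes, featureCounts 1.4.5, Subread and the build GRCm38.p2 were used, in roles not stated; for annotation release and strand setting the entry is: not given in the sources used here. The deposited counts alone were used. Symbols matched 40254 of 41388 identifiers. TPM was count over deposited length, scaled within a library.

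Library contrasts used edgeR 4.0.16 (quasi-likelihood, TMM, filterByExpr, Benjamini-Hochberg 0.05 over all genes), with 1 residual degree of freedom, so that a lone library is assumed to vary like the others. Standard errors are approximate, from the ratio and its F statistic. The code was run on simulated data with less spread between libraries than these pools, so that run does not measure how the fits perform here. Alternatives were DESeq2 1.42.0, its size factors, no filter, a surface of log length and GC (mgcv 1.9.3; GC of the longest GENCODE transcript, known for 99.4% of genes), CPM, other limits and pseudocounts, and each library left out. Totals were 18072199, 11666241 and 20966139 counts in B, C and D. Floors cover counting error only, since amplified reads that carry no molecular identifier can come from 1 molecule. The SD and SE values given after ± also hold the spread between pools.

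The genes and lists were chosen with earlier results of these data known. Named are the 9 genes, Rbp4, Rdh10, Dhrs3, Aldh1a1, Aldh1a3, the Cyp26 genes, the 3 highest by mean TPM of the other lists, the 2 highest of marker lists that are discussed with any at or near 0, and the 2 closest in level. One gene that this rule names is not reported here.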

Additional observations from a re-analysis of the deposited data

How the results depend on the processing

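With 3 pools, the spread between libraries limits these results, and the Cyp26 genes had at most 6 counts in a library. Of 238 alternatives, 216 were labelled the same as the main result. For ratios between genes this meant the same sign only, and for counts a value near the main one. For refitted log2 ratios of a gene in a library it meant the same sign and side of the threshold. With a library left out, it meant the same sign and a shift within the SE, with no threshold. With a detection limit of 5 TPM, 3 of the 9 genes were detected in every library. With CPM in place of TPM, Rxra over Rxrb became 0.050 and Crabp1 over Crabp2 -0.45, since CPM leaves out length. Leaving out each library in turn gave -0.090 to 0.84 for Rara over Rarb, -1.65 to 0.50 for Rxra over Rxrb and -0.13 to 0.73 for Crabp1 over Crabp2.

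With no filter on low counts, 1 of the 9 genes, Rxra, passed in D and Crabp2 had a log2 ratio of 0.032; the cause was not tested. The fit with no filter tested 23553 genes, against 15727 with the filter. The call of Rxra is to be read against those over all genes in that fit, given below. With the length and GC trend removed, Crabp2 in D moved to 0.75, Aldh1a2 in D to 0.012 and Rarg in C to -0.047. Over all genes, calls in D were 0 with TMM, 8 with DESeq2's size factors, 386 higher and 326 lower with DESeq2, and 933 higher and 601 lower with no filter. In C, 119 higher and 4 lower calls became 259 and 59 with that trend removed. Against single libraries, with no test, the log2 ratio ran from -1.07 to 0.85 for Aldh1a2, -0.63 to 1.02 for Crabp2 and -0.21 to 0.42 for Rara in D, and from -0.93 to 0.69 for Crabp1 in C. In B it ran from -1.39 to 0.28 for Rarb, -0.0034 to 0.39 for Rarg, -1.86 to 0.59 for Rxra, -1.12 to 0.83 for Rxrb and -0.35 to 0.28 for Rxrg. The trend correction of the pathway lists and the glia sum without Ednrb were chosen after seeing the data. No paired analysis was possible because there is a single group.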
